A study of Mus musculus with 10 samples.

Results

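The T cell receptor beta locus was described in RNA sequencing libraries of CD3+ T cells from the spleen. Its members were the rows whose gene symbol starts with Trbv, Trbd, Trbj or Trbc. The table listed 26 such rows among 20617, namely 24 variable (Trbv) and 2 constant (Trbc) segments. No diversity (Trbd) or joining (Trbj) segment had a row in the table used here. All mice were Nf1OPG mice, that is, Nf1 flox/mut mice with GFAP-Cre. This removes the remaining Nf1 copy in neuroglial progenitors and leaves T cells with a single working copy. The methods state a C57BL/6 background. Levels of several H2 genes differed strongly between libraries of both groups. Neither the H2 haplotype of the mice nor the part of other cells in these levels was tested. The 5 PBS libraries (replicates 1 to 5) came from control mice and the 5 OVA libraries (replicates 6 to 10) from mice sensitised to chicken-egg ovalbumin with aluminium hydroxide and then exposed to it through the nose, a model of asthma. The labels give the ovalbumin treatment as lasting 2 weeks. They give neither age nor whether animals were pooled, so that p-values measure the spread between these libraries.

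The beta chain pairs with the alpha chain to form the antigen receptor of most T cells. Each developing T cell joins a variable, a diversity and a joining segment to a constant segment, and the variable segment it chooses is read by antibodies and sequencing as its Vβ. In the thymus, T cells whose receptor binds self molecules strongly are removed. Superantigens encoded by endogenous mammary tumour viruses, presented by MHC class II molecules, remove cells by the Vβ they carry. The mouse MHC, named H2, holds genes of class I and of class II.

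The names in the deposited table were out of step with the values, so each member had to be read from a row above its own name. A distance of 25 rows had been set at the outset, with 24 as a check, and the 2 differed at the constant segments. With 24 rows, Trac, the alpha chain constant segment, had a mean of 22280 normalized counts, Trbc1 10670 and Trbc2 31780, and Trbc2 and Trbc1 were the highest members. With 25 rows, Trac fell on a row of 529.3 and Trbc1 on one of 166.3, whereas the single segment Trbv1 took the row of 31780. Past the locus, Trdc, the delta chain constant segment, was at 1337 with 24 rows and at 597.9 with 25. Values 24 rows above the name are therefore reported, a choice made after these levels were seen.

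**Figure D1:**
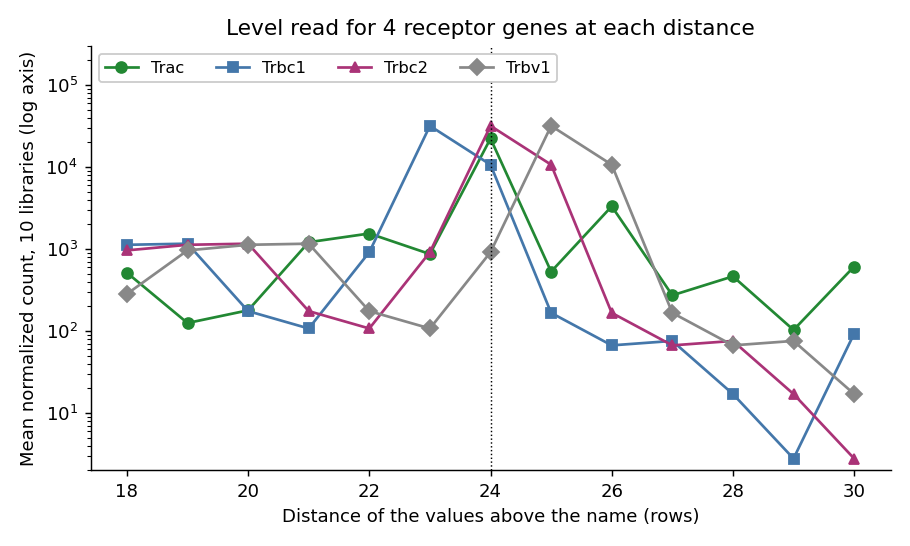
Mean normalized count over 10 libraries (log axis) read for Trac, Trbc1, Trbc2 and Trbv1 at each distance between name and values (rows). At 24 rows (dotted line) Trac, Trbc1 and Trbc2 are at 22280, 10670 and 31780, and at 25 rows Trbv1 takes the value of 31780.

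Not every measure favoured 24. Functional segments lay above pseudogenes in 42 of 44 pairs at either distance. These pairs rest on 2 pseudogenes, Trbv22 and Trbv24, and RefSeq lists Trbv29 as a pseudogene but not Trbv24. A model of the whole table, which used no group labels, gave 25 rows a probability of 0.445 to 0.567 across the members and 24 rows 0.109 to 0.175. The names of single segments thus rest on the constant genes.

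The libraries held 6835696 to 29915782 reads, PBS replicate 3 being the shallowest, and 2811 to 18980 reads on Trbv segments. The T cell markers were present in every library, their summed level being 83390 to 152100 normalized counts in PBS and 101000 to 132200 in OVA. The 7 placed of 8 B cell markers summed to 823.8 to 2607 and 865.6 to 7015, and the 7 erythroid markers to 2950 to 15900 and 445.6 to 9766. The 4 placed of 5 neutrophil markers summed to 1788 to 5124 in PBS and 2244 to 21390 in OVA. The row read as S100a9 was at 17810 in OVA replicate 6, and that read as S100a8 at 2487. The model read both 25 rows above their names, in a short block between blocks at 24 rows. Which distance holds there was not tested, so that these names and the neutrophil sum are uncertain. The 7 macrophage markers summed to 240 to 828 and 326.1 to 1235, and the 5 NK markers to 507.8 to 984.7 and 583.7 to 888.4. The 4 placed of 5 endothelial markers summed to 1025 to 2171 and 1828 to 2316. The 5 placed of 7 stromal markers summed to 7.75 to 60.93 in PBS and 106.9 to 169.2 in OVA. Col1a2, Col3a1 and Dcn were at 0 in at least 1 PBS library and in no OVA library. The part of these cells in the results was not tested. In such bulk samples, fewer cells of a type and less RNA per cell cannot be told apart.

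The segments that the results turn on are shown by the last 60 bases of their variable exon, where receptor diversity begins (GENCODE M21, GRCm38, plus strand). The capitals mark TGTGCNAGC, which opens with the codon of the conserved cysteine before the joining region. It was found in 19 of the 24 variable segments (79.2%) on the sense strand and in 0 on the other. The first 5 sequences belong to segments that were high together in the same 3 libraries, and the last 3 to the closely related Trbv13 segments, which differed little.
Trbv3, chr6:41048769-41048828: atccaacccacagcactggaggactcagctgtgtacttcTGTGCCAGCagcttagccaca
Trbv12-1, chr6:41114008-41114067: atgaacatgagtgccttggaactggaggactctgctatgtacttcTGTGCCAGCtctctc
Trbv12-2, chr6:41119305-41119364: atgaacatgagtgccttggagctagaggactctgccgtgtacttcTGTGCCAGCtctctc
Trbv15, chr6:41141599-41141658: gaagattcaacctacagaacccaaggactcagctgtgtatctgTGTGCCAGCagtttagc
Trbv16, chr6:41152171-41152230: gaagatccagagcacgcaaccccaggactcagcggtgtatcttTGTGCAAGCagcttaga
Trbv13-1, chr6:41116409-41116468: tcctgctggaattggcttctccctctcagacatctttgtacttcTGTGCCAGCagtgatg
Trbv13-2, chr6:41121773-41121832: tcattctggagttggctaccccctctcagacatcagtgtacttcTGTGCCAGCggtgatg
Trbv13-3, chr6:41130526-41130585: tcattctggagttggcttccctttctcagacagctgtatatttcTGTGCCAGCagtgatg

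Trbv12-1 and Trbv12-2 differed at 4 of these 60 bases. Over their whole transcripts they were 88.3% identical, with a longest identical run of 44 bases, and Trbv13-2 and Trbv13-3 were 90.6% identical, with a run of 50. Reads that lie wholly within such runs cannot be assigned to a single segment. How far this makes the split within these pairs uncertain depends on the read length, which is not given here. The same holds for Trbc1 and Trbc2, which were 90.7% identical and shared a run of 259 bases.

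The constant segments, present in every beta chain transcript, did not pass the test between OVA and PBS. Trbc1 (chr6:41538218-41539881) was at 16910, 10520, 6633, 11330 and 9835 normalized counts in PBS replicates 1 to 5 and at 8710, 12150, 10910, 9228 and 10520 in OVA replicates 6 to 10. Trbc2 (chr6:41546730-41548352) was at 46940, 29920, 21480, 33000 and 32530 in PBS and at 26790, 37540, 32360, 27470 and 29810 in OVA. For both, PBS replicate 1 was the highest library and PBS replicate 3 the lowest, and the OVA libraries lay between them. The log2 fold change (OVA minus PBS) was -0.05 ± 0.201 (SE) for Trbc1 and -0.06 ± 0.189 for Trbc2, with limma adjusted p of 0.958 and 0.943. The 95% intervals, -0.48 to 0.38 and -0.46 to 0.35, bound the difference; when all libraries were scaled to 1 total, the signs turned (0.07 and 0.06). Per kb of exon, Trbc1 was at 0.279 to 0.333 of Trbc2 in all libraries, with a mean of 0.308 ± 0.0241 in PBS and 0.309 ± 0.0108 in OVA (SD, n = 5).

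Across the locus, 0 of 26 members had a limma adjusted p under 0.05, beside 0.00494% of all 20249 rows tested, and 0 had an unadjusted p under 0.05, beside 9.77%. On the recovered reads, edgeR called 0 members by adjusted p, beside 0.00988% of all rows, and 0 by unadjusted p, beside 9.06%. DESeq2 called 0 by adjusted p, beside 0.894% of the rows to which it gave one, and 0 by unadjusted p, beside 9.27%. The levels of the groups overlapped in all 26 members, whereas they did not in 1.78% of all rows (OVA higher in 1.42% and lower in 0.356%). The median log2 fold change was -0.06 over the members and 0.04 over all rows, with 20 members below 0 and 6 above, which became 6 below 0 when all libraries were scaled to 1 total. Trbv22, annotated as a pseudogene, had the lowest p (log2 fold change 1.15 ± 0.559, limma adjusted p = 0.522), on 23 reads over all libraries.

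**Figure D2:**
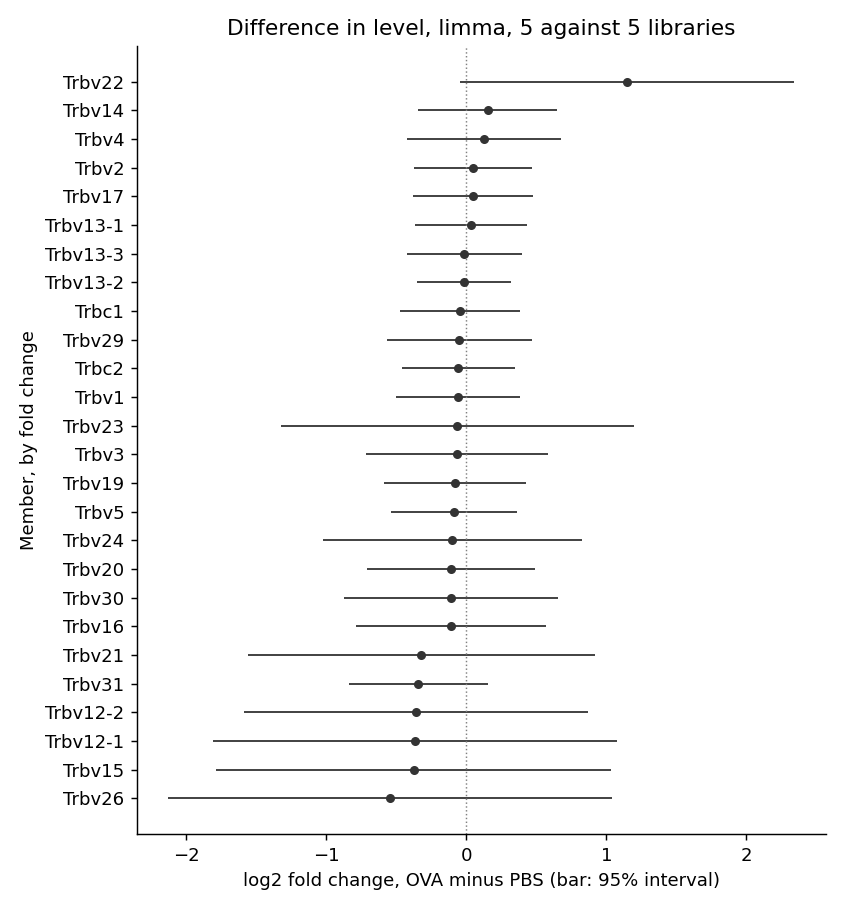
Log2 fold change (OVA minus PBS, on log2 of normalized count plus 1) of the 26 members with its 95% interval from limma, 5 against 5 libraries. Every interval includes 0, and those of Trbv12-1, Trbv12-2, Trbv15 and Trbv26 are among the widest.

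The variable segments were next expressed as shares of all Trbv normalized counts in a library, given here in the order of the replicates, 1 to 5 for PBS and 6 to 10 for OVA. The 6 with the largest share, Trbv19, Trbv13-1, Trbv13-2, Trbv13-3, Trbv1 and Trbv17, together took 46.8% to 61.0% of a library, with a mean of 56.3%. Trbv19 took 15.4%, 10.7%, 12.1%, 13.9% and 12.4% in PBS and 12.5%, 14.0%, 13.8%, 14.2% and 8.99% in OVA. It was thus lowest in OVA replicate 10. Because longer exons collect more reads, the order was also taken per kb of exon, where Trbv13-2 (11.96%), Trbv13-1 (11.4%) and Trbv13-3 (10.1%) came before Trbv19 (8.91%).

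The 3 Trbv13 segments, known together as Vβ8, were steady. Trbv13-1 took 10.9%, 10.1%, 9.61%, 10.97% and 9.69% in PBS and 11.5%, 11.7%, 10.8%, 10.1% and 10.4% in OVA. Trbv13-2 took 9.38%, 9.77%, 11.95%, 10.6% and 9.39% in PBS and 10.7%, 10.99%, 11.02%, 10.4% and 9.08% in OVA. Trbv13-3 took 9.51%, 7.65%, 9.28%, 8.76% and 7.96% in PBS and 9.57%, 9.49%, 9.69%, 7.89% and 7.70% in OVA. The highest library exceeded the lowest by 1.22, 1.32 and 1.27 times, and the groups overlapped in each. Together they took 29.1% ± 1.72 in PBS and 30.2% ± 2.28 in OVA (SD, n = 5).

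Trbv1 and Trbv17 varied more, the highest library exceeding the lowest by 1.55 and 1.88 times. Trbv1 took 10.2%, 9.05%, 8.40%, 7.53% and 6.61% in PBS and 8.87%, 9.57%, 8.33%, 7.75% and 6.82% in OVA. Trbv17 took 3.75%, 4.63%, 6.47%, 5.72% and 6.34% in PBS and 7.04%, 5.27%, 6.05%, 6.502% and 3.90% in OVA. Each group spanned most of the range of the other.

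**Figure D3:**
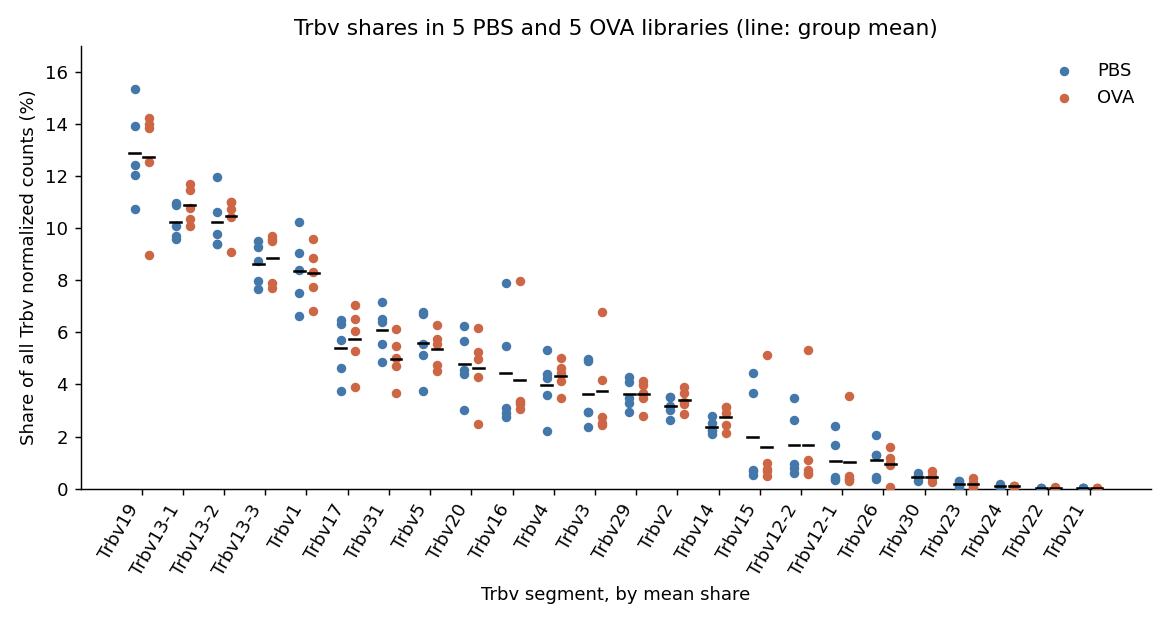
Share of all Trbv normalized counts (%) for the 24 Trbv segments in 5 PBS and 5 OVA libraries; each point is 1 library and each line a group mean. The groups overlap in every segment, and single libraries of both groups stand high for Trbv16, Trbv3, Trbv15, Trbv12-2 and Trbv12-1.

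Shares of 0 of 24 segments were apart between the groups. Among segments of at least 1%, the difference of mean shares was largest relative to the spread for Trbv31, the only listed Trbv on the minus strand, which lies beyond Trbc2. It took 7.16%, 6.501%, 5.55%, 6.39% and 4.85% in PBS and 4.71%, 6.13%, 5%, 5.48% and 3.67% in OVA, or 6.09% ± 0.8996 against 4.996% ± 0.917 (SD, n = 5). Its level gave a log2 fold change of -0.34 ± 0.232 and a limma adjusted p of 0.651. The difference in its mean share, -1.09 percentage points, was -0.00134 with values taken 25 rows above the name. There the name Trbv31 reads the row taken here for Trbv30, and Trbv1 takes 75.3% of all Trbv. These values therefore do not describe the same row. Trbv14 took 2.80%, 2.10%, 2.53%, 2.24% and 2.23% in PBS and 2.91%, 3.13%, 3.14%, 2.46% and 2.13% in OVA.

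Trbv2 and Trbv4 also overlapped. Trbv2 took 3.02%, 2.64%, 3.52%, 3.52% and 3.16% in PBS and 3.32%, 3.24%, 3.66%, 3.91% and 2.86% in OVA. Trbv4 took 4.25%, 2.20%, 5.34%, 4.41% and 3.61% in PBS and 4.63%, 4.44%, 5.01%, 4.13% and 3.46% in OVA. The lowest Trbv4 share was in PBS replicate 2.

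Differences between single libraries were far larger than those between the groups. Trbv12-1 took 0.321%, 2.43%, 0.356%, 0.458% and 1.66% in PBS and 0.385%, 0.290%, 0.369%, 0.470% and 3.55% in OVA. Trbv12-2 took 0.598%, 3.49%, 0.961%, 0.775% and 2.64% in PBS and 0.700%, 0.601%, 0.569%, 1.10% and 5.33% in OVA. In both, PBS replicates 2 and 5 and OVA replicate 10 were high, and the other libraries low. For Trbv12-1, the Wilson 95% interval was 3.24% to 3.89% in OVA replicate 10 (443 of 12469 Trbv reads) and 0.223% to 0.377% in OVA replicate 7 (55 of 18979); it covers counting error only.

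Trbv15 took 0.508%, 4.44%, 0.711%, 0.669% and 3.67% in PBS and 0.685%, 0.495%, 0.745%, 0.975% and 5.13% in OVA. Trbv16 took 2.75%, 7.89%, 2.92%, 3.10% and 5.49% in PBS and 3.05%, 3.31%, 3.25%, 3.35% and 7.98% in OVA. Trbv3 took 2.93%, 4.96%, 2.38%, 2.95% and 4.92% in PBS and 2.76%, 2.50%, 2.44%, 4.18% and 6.78% in OVA. These segments were highest in the same 3 libraries, in the order OVA replicate 10, PBS replicate 2 and PBS replicate 5, as Trbv12-1 and Trbv12-2 were. The highest share exceeded the lowest by 12.3 times for Trbv12-1, 9.36 for Trbv12-2, 10.4 for Trbv15, 2.90 for Trbv16 and 2.85 for Trbv3.

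Together, these 5 segments took 7.11%, 23.2%, 7.33%, 7.95% and 18.4% of Trbv in PBS and 7.57%, 7.20%, 7.37%, 10.1% and 28.8% in OVA. The group means were 12.8% ± 7.50 and 12.2% ± 9.34 (SD, n = 5). The 3 high libraries include both treatments. Of the 19 segments with a mean share of at least 1%, these 5 were the ones highest in those libraries. PBS replicate 2 and OVA replicate 10 were both among the 3 lowest libraries in 8 segments, Trbv19, Trbv13-3, Trbv14, Trbv17, Trbv2, Trbv20, Trbv4 and Trbv5; shares sum to a whole, so that some must be lower where others are higher.

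Trbv26 (Vβ3) varied in another way. It took 2.08%, 0.456%, 1.28%, 0.387% and 1.28% in PBS and 1.00%, 0.901%, 0.0561%, 1.19% and 1.596% in OVA. In OVA replicate 8 it had 7 of 12480 Trbv reads, with a Wilson 95% interval of 0.0272% to 0.116%, below the share in every other library. The remaining 5 segments, Trbv21, Trbv22, Trbv23, Trbv24 and Trbv30, took under 1% each, and Trbv21 was at or under 3 reads in 9 libraries.

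H2 genes, which encode or resemble the MHC molecules that T cells are selected on, also differed between libraries. They were chosen after their values had been seen. H2-K2, H2-Q1, H2-Q6 and H2-Q7 are class I genes or resemble them. H2-K2 was at 577.1, 32.71, 293.6, 305.6 and 159.7 normalized counts in PBS and at 261.6, 326.7, 267.4, 269.0 and 17.31 in OVA. H2-Q1 was at 3435, 81.76, 1271, 1792 and 810.2 in PBS and at 1600, 2132, 1586, 1428 and 100.7 in OVA. Both were thus lowest in the 3 libraries with high Trbv12-1, Trbv12-2, Trbv15, Trbv16 and Trbv3.

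H2-Q7 was at 552.8, 5992, 2171, 3370 and 4985 in PBS and at 2999, 4789, 3268, 3495 and 7034 in OVA, highest in the same 3 libraries. H2-Q6 was at 134.0, 1808, 578.8, 1062 and 1763 in PBS and at 941.5, 1785, 923.4, 992.1 and 2212 in OVA, where OVA replicate 7 lay above PBS replicate 5. H2-Ea-ps, the class II alpha chain gene that C57BL/6 mice carry in a disabled form, was at 17.80, 2.58, 33.23, 11.84 and 0 in PBS and at 47.23, 21.91, 15.17, 38.44 and 0 in OVA, lowest in the same 3 libraries. H2-Eb1, its beta chain partner, was not: it was at 1662, 3297, 1291, 433.6 and 172.3 in PBS and at 2707, 896.9, 194.4, 1038 and 2339 in OVA. In the 3 libraries H2-Ea-ps was at or under 3 reads, and PBS replicate 5 was also the lowest library for H2-Eb1. H2 genes resemble each other, so that reads may be split between them, and their part in the Trbv shares was not tested. Of the 10 H2 genes examined, 3 (H2-K2, H2-Q1 and H2-Ea-ps) were lowest in these 3 libraries and 1 (H2-Q7) was highest, whereas 6 (H2-K1, H2-D1, H2-Q6, H2-Eb1, H2-Aa and H2-Ab1) followed neither order. How many of all rows follow either order was not counted. These counts therefore do not show whether the pattern is particular to H2 genes.

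**Figure D4:**
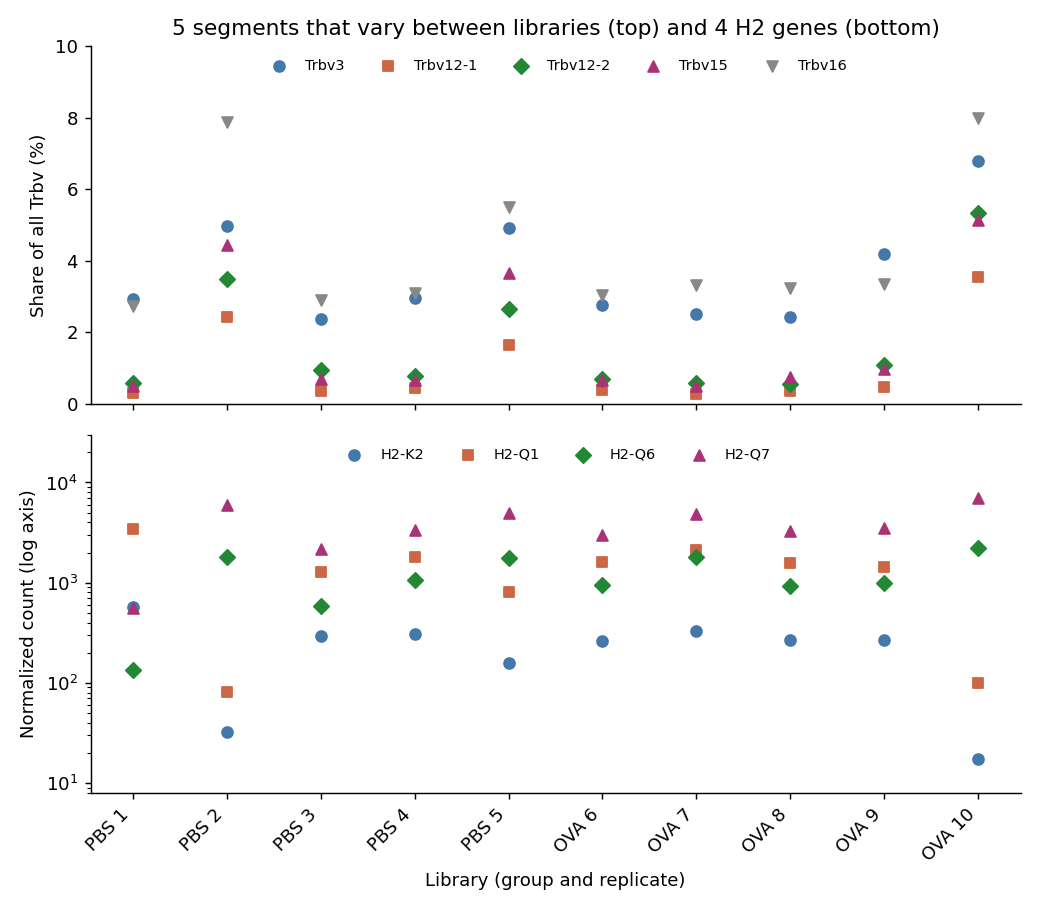
Share of all Trbv (%) of Trbv3, Trbv12-1, Trbv12-2, Trbv15 and Trbv16 (top) and normalized count (log axis) of H2-K2, H2-Q1, H2-Q6 and H2-Q7 (bottom) in each of 10 libraries. The 5 segments are highest in PBS replicates 2 and 5 and OVA replicate 10, where H2-K2 and H2-Q1 are lowest.

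Evenness, the Shannon entropy of the Trbv shares over its maximum for 24 segments, was 0.846, 0.881, 0.856, 0.850 and 0.890 in PBS and 0.852, 0.843, 0.841, 0.863 and 0.8995 in OVA. It was highest in the same 3 libraries. The group means were 0.864 ± 0.0199 and 0.860 ± 0.0237 (SD, n = 5), a difference within the spread of either group. As an effective number of equally used segments, the libraries held 14.5 to 17.4.

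The summed Trbv level overlapped between the groups as well. Summed Trbv segments made up 0.0673%, 0.0511%, 0.0411%, 0.0627% and 0.0644% of the library in PBS and 0.0543%, 0.0634%, 0.0636%, 0.0565% and 0.0575% in OVA, or 0.0573% ± 0.0109 against 0.0590% ± 0.00425 (SD, n = 5). Against the constant segments, there were 26.02 ± 2.73 Trbv normalized counts per 100 of Trbc in PBS and 26.04 ± 1.76 in OVA.

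**Figure D5:**
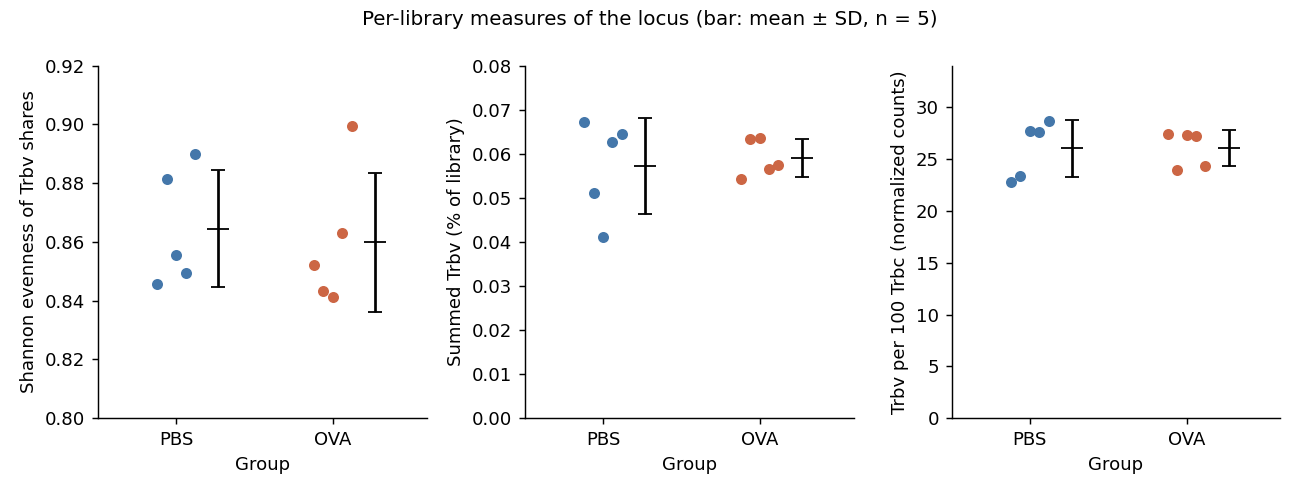
Evenness of Trbv shares, summed Trbv (% of the library) and Trbv per 100 Trbc normalized counts for 5 PBS and 5 OVA libraries (points), with mean and SD (bars); the evenness axis starts at 0.80. Evenness is 0.841 to 0.8995 in all libraries, and the groups overlap in each panel.

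Among the partners of the beta chain, 0 of 12 genes of the receptor complex and coreceptors passed the limma test in either direction, beside 0.00494% of all rows, with log2 fold changes of -0.20 to 0.21 and a lowest adjusted p of 0.769. Trac was at 26640, 18840, 13390, 23120 and 28330 in PBS and at 18250, 26790, 23420, 21000 and 23070 in OVA. With so few rows called in all, a count of 0 says little about a short list. Likewise, 0 of 8 proximal signalling genes passed (log2 fold changes of -0.23 to 0.31, lowest adjusted p of 0.517). Of the 3 rearrangement genes 0 passed; Dntt, which adds bases at the joints, was at 163.5 to 335.1 in PBS and 269.9 to 448.5 in OVA (log2 fold change 0.49 ± 0.214, adjusted p = 0.485).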

How the data were processed

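RNA of CD3+ T cells from the spleen was sequenced in 5 PBS and 5 OVA libraries, grouped by their labels. Per the labels and the study's methods, the authors demultiplexed reads with bcl2fastq, aligned them with STAR 2.6.1d to an Ensembl assembly (mm10), obtained gene counts with Partek Flow 9.0 and scaled them by size factors from median ratios. The library kit does not mark strand. The deposited values are therefore normalized counts (signal), and 1 table held all libraries. Within a library the value of 1 read divides at least 99.9% of values to within 0.1 of a whole number, so that reads were recovered by division; totals give the depth, and intervals and floors cover counting error only.

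Names and values were out of step, as the report describes. The distance was modelled with a hidden Markov model (-10 to 40 rows, chance of change 0.002, 15 rounds). Segments were read 24 rows above their names, although 25 had been planned as the main reading; 25 is an alternative. Partner, marker and H2 genes were read where the model's probability was above 0.9, except Trac, Trdc, Trgc and Trat1, which were read 24 rows above. Names placed by the model were not checked as the constant segments were, so that they may be off by a row. The table's ends lay 1 base past those of GENCODE M21 (GRCm38) for all 26 members, and GENCODE coordinates are printed.

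Rows with a mean of at least 1 were tested with limma 3.58.1 on log2(normalized count + 1) with a variance trend, without covariates, with Benjamini-Hochberg adjustment over all rows; fold changes on this scale understate those of low rows. edgeR 4.0.16 (quasi-likelihood) and DESeq2 1.42.0 on the recovered reads were alternatives. The fits were tested on simulated data. Shares and evenness were described without a test. Identity came from pairwise alignment in Biopython 1.88. Values in every library were given for Trbc1, Trbc2, the 6 largest Trbv shares, the 5 further segments of at least 1% with the largest difference relative to the SD, and segments with 1 library far from its group; Trbv3 and the H2 genes were added after their values were seen. Members and lists were chosen with earlier results of these data known. Other alternatives were pseudocounts of 0.1 and 0.5, minimum means of 5, 10 or none, other scalings, array weights, functional segments alone, thinning to 2811 Trbv reads, and leaving out each library.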

Additional observations from a re-analysis of the deposited data

Results flagged for a closer look

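In 5 of 70 groups of 5 libraries examined, 1 library lay far from the rest. Chance alone would give about 3.5 for independent groups chosen in advance. The groups here are not independent, and the H2 genes among them were chosen after their values had been seen. The counts therefore cannot be compared. All 5 concerned OVA replicate 10. The gap to the nearest library, divided by the whole range of the OVA group, was 0.945 for the share of Trbv12-1 (3.55% against 0.290% to 0.470%), 0.889 for Trbv12-2 (5.33% against 0.569% to 1.10%), 0.896 for Trbv15 (5.13% against 0.495% to 0.975%) and 0.939 for Trbv16 (7.98% against 3.05% to 3.35%). For the level of H2-K2 the ratio was 0.790, OVA replicate 10 being the lowest (17.31 against 261.6 to 326.7 normalized counts). The segments share a library and a denominator, so that these are not separate observations. In PBS, where 2 libraries were high, no group was marked in this way.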

How the results depend on the processing

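No member passed an adjusted p of 0.05 under any alternative run. No paired analysis was possible because the PBS and OVA libraries share no replicate number. The distance between names and values was 24 rows as reported and 25 by the model's highest probability. With 25 rows Trbv1 took 75.3% of Trbv, the log2 fold change of Trbc1 turned to 0.0123, and that of Trbc2 was -0.0462. With all libraries scaled to 1 total, the changes of Trbc1 and Trbc2 turned to 0.0667 and 0.0565, and with quantile normalization to 0.0925 and 0.105. Leaving out 1 library gave -0.214 to 0.123 for Trbc1 and -0.197 to 0.0844 for Trbc2; the signs turned without PBS replicate 1 and, for Trbc1, without OVA replicate 6 (0.0119). The count of members with an unadjusted p under 0.05 was 1 with that scaling (Trbv22) and 0 to 1 without 1 library: Trbv31 without PBS replicate 3 and Trbv22 without PBS replicate 5. Shares that were apart between the groups numbered 0 to 1 without 1 library, the 1 being Trbv22 without PBS replicate 5. The difference in evenness was -0.0144 to 0.00184 and that in summed Trbv -0.00231% to 0.00422% of the library when 1 library was left out. Across the whole table, limma called 1 row, edgeR 2, array weights 2, DESeq2 167, and limma without PBS replicate 5 called 135. With the same total, the median over all rows moved from 0.04 to 0.15, and that of the members from -0.06 to 0.05. Of 195 recomputed differences between the groups in the share of a named segment, 193 moved by less than 1 SD. The exceptions were Trbv31 with 25 rows (from -1.09 to -0.00134 percentage points) and Trbv2 after thinning (from 0.226 to 0.797). Of the 195, 150 left out 1 library, so that they share most of their data. Leaving out 1 of 5 libraries moves a group mean by less than 1 SD of that group. These 150 could therefore hardly fail. Some signs turned all the same, as for Trbv15 (from -0.392 to 0.218 without PBS replicate 2), whereas Trbv31 kept its sign throughout. Another 15 used functional segments alone, which changes the sum little. A further 15 used 25 rows, where each name reads the row of another gene and Trbv1 takes most of the sum. Differences at 25 rows therefore say little about the named segments. The shares themselves moved far more with 25 rows. The depth of PBS replicate 3 and the few reads of Trbv21, Trbv22 and Trbv24 limit what could be seen there.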
